A study of Mus musculus with 23 samples.

Results

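The mitochondrial genome carries its own small set of genes, and 10 of its mRNAs were followed here in mouse quadriceps muscle: mt-Nd1, mt-Nd2, mt-Nd4, mt-Nd5 and mt-Nd6 (subunits of complex I, which takes electrons from NADH), mt-Cytb (the cytochrome b subunit of complex III), mt-Co1, mt-Co2 and mt-Co3 (the core of cytochrome c oxidase, complex IV) and mt-Atp6 (a subunit of the ATP synthase, complex V). They were chosen by symbol among the 37 genes of the mitochondrial chromosome and the 38924 genes in each count file. Both strands of this genome are transcribed as long precursors, from which tRNAs, rRNAs and mRNAs are cut, and the proteins made from these mRNAs are assembled with many subunits encoded in the nucleus. In muscle the finished complexes make most of the ATP of oxidative fibres. All of these genes lie on the plus strand except mt-Nd6, which is on the minus strand (chrM:13552-14070, mm10) and overlaps the end of mt-Nd5 (chrM:11742-13565).

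The libraries came from 23 mice of the C57BL/6 background, a separate animal for each, and sex is not given. Wild-type (WT) mice were sampled at 4 months (WT_4m), 7 months (WT_7m) and 24 months (WT_24m), 4 libraries each. Mice lacking Nampt in skeletal muscle (mNKO) were sampled at 7 months (mNKO_7m, 4 libraries), and mice that overexpress Nampt in muscle (MCK-NamptOE, whose name refers to the muscle creatine kinase promoter) at 4 months (3 libraries, OE_4m) and at 24 months (4 libraries, OE_24m). Nampt makes the precursor of NAD in the salvage pathway, and NADH is what complex I oxidises. All mice ate standard chow and some had glucose and exercise tolerance tests, per the labels. The Cre line behind mNKO and the animals' litters are not given in the sources used here. RNA was selected by its poly(A) tail, after extraction with miRNeasy at 7 months and Trizol at 4 and 24 months, so the sets were never tested against each other. Gene counts were 14900674 to 22755930 per library at 7 months and 2032544 to 3443762 at 4 and 24 months. Nampt itself averaged 119 ± 11.8 CPM (gene counts relative to the scaled library size) in WT_7m and 18.6 ± 4.51 CPM in mNKO_7m (SD, n = 4), and 5080 ± 632 (n = 3) and 6200 ± 2332 CPM (n = 4) in MCK-NamptOE at 4 and 24 months, against 219 ± 23.1 and 205 ± 12.1 CPM in WT (n = 4). Markers of muscle were present in every group.

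The 10 mRNAs fell into 7 with many counts, called countable here, and 3 with almost none. The deposited counts of mt-Co2, mt-Atp6 and mt-Co3 were 0 to 31, 1 to 157 and 0 to 26 per library, whereas mt-Co1, which belongs to the same complex as mt-Co2 and mt-Co3, held 147189 to 914852. These 3 genes have annotated copies in the nuclear genome. A run of 7 unprocessed pseudogenes on chromosome 1 (chr1:24611535-24616197, mm10, minus strand, 4663 bases) carries the mitochondrial stretch from within mt-Co1 to within mt-Nd4 (chrM:6381-11042, 4662 bases). Within it Gm28661 matches mt-Co2 over 681 of its 684 bases, Gm10925 matches mt-Atp6 over 678 of 681 and Gm28437 matches mt-Co3 over 783 of 784, each with 0 differing bases. The first 120 bases of mt-Co2 (chrM:7013-7132, plus strand) and of its nuclear copy (chr1:24615446-24615565, minus strand) are shown first because a read within the stretch fits both places. The second pair is where the nuclear stretch begins inside mt-Co1 (chrM:6381-6500, plus strand, from base 1054 of the gene) and in Gm29216 (chr1:24616078-24616197, minus strand). Sequences are from GENCODE M21 transcripts, 5′ to 3′, and capitals mark bases that differ within a pair.
mt-Co2: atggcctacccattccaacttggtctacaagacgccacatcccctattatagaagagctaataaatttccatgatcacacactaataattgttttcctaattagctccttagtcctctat
Gm28661: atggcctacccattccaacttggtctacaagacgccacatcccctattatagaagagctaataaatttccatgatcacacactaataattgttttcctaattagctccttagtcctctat
mt-Co1: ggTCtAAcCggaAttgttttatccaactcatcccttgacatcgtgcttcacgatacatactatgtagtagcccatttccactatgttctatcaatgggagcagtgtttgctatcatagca
Gm29216: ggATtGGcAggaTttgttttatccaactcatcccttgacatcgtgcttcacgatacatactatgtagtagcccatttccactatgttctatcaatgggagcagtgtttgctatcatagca
The mt-Co2 pair is identical throughout, and the mt-Co1 pair has 6 differing bases, all among the first bases shown.

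To put a number on this, each gene was cut into every window of 50 bases, and windows found in a transcript annotated outside the mitochondrial chromosome were counted. The share was 100% for mt-Co2, 99.5% for mt-Atp6 and 99.9% for mt-Co3, and at window lengths of 36, 75 and 100 bases it was 99.48% or more for each. It was 62.2% for mt-Nd4 and 51.1% for mt-Co1, 8.19% for mt-Nd2 and 7.61% for mt-Nd5, and 0% for mt-Nd1, mt-Nd6 and mt-Cytb. The first 876 of the 1378 bases of mt-Nd4 are identical to Gm28439. The 3 mitochondrial mRNAs outside the list were also nearly uncounted: over all 23 libraries mt-Nd3 held 22 counts, mt-Nd4l 7 and mt-Atp8 1. Windows of mt-Nd3 and mt-Nd4l were shared in 98% and 98.8%, and those of mt-Atp8 in 0%. mt-Atp8 starts between mt-Co2 and mt-Atp6, inside the stretch that the chromosome 1 run spans, but no annotated copy found there covers it. No genome sequence was used to look for copies that are not annotated, so the 0% does not show that mt-Atp8 lacks a nuclear copy. Only 1 of the 7 chromosome 1 pseudogenes has a line in the count files. Each file's line for reads that did not align uniquely held 17.6 to 36.4% of all reads, and how many of them come from these genes was not tested. The counts of mt-Co2, mt-Atp6 and mt-Co3 are therefore not read as levels here. Whether the counts of mt-Nd4 and mt-Co1 leave out their shared stretches was not tested.

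**Figure D1:**
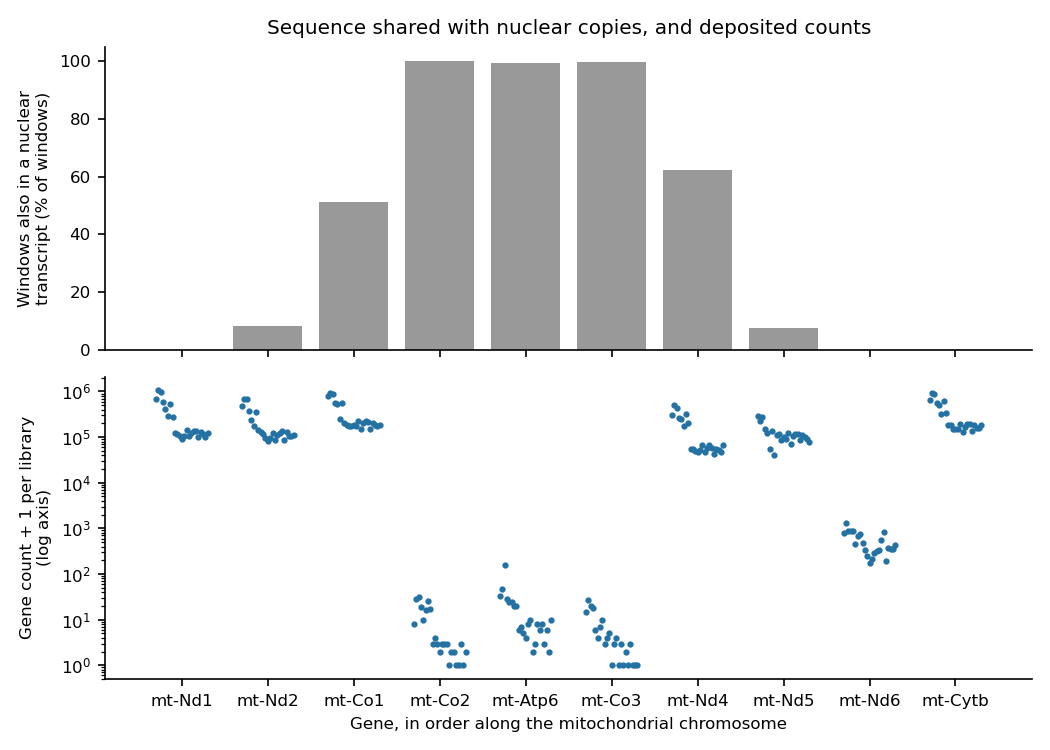
Top: percent of 50-base windows of each mRNA that also occur in a transcript annotated in the nucleus. Bottom: deposited gene count plus 1 in each of the 23 libraries (points side by side within a gene), on a log axis. The 3 genes at or above 99.5% hold at most 157 counts in any library, and mt-Nd6, at 0%, holds 172 to 1329.

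The countable mRNAs were among the most abundant transcripts of the muscle. Ranked by gene count over all genes, mt-Cytb stood at 1 to 7 in each of the 23 libraries, mt-Nd1 at 1 to 8, mt-Co1 at 1 to 15 and mt-Nd4 at 7 to 17. mt-Nd2 stood at 3 to 19 and mt-Nd5 at 4 to 40. mt-Nd6 stood apart from the others, at 332 to 3779. Per length, in kRPKM (CPM per kilobase of transcript, divided by 1000), WT_4m held 60.7 of mt-Cytb, 49.0 of mt-Co1, 47.6 of mt-Nd1, 42.0 of mt-Nd2, 23.7 of mt-Nd5, 15.7 of mt-Nd4 and 0.242 of mt-Nd6. In all 6 groups mt-Nd6 was the lowest of the 7 and mt-Cytb or mt-Nd1 the highest by this level. The mammalian mt-Nd6 transcript is known to carry little or no poly(A) tail, and these libraries were made from poly(A) RNA. The libraries' strand is not stated, so reads antisense to mt-Nd6 cannot be told apart from its own.

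The order of the other genes depended on how shared sequence was treated. When only windows that occur nowhere among nuclear transcripts were counted as length, mt-Co1 became the highest in WT_4m at 104 kRPKM, ahead of mt-Cytb at 63.5, and mt-Nd4 rose from 15.7 to 43.2. This correction takes reads of 50 bases and assumes that shared reads were dropped, and neither the read length nor the counting setting is given in the sources used here. The neighbours mt-Co1 and mt-Nd1 at 4 months did not differ beyond their spread (49.0 ± 10.4 and 47.6 ± 6.08 kRPKM, SD, n = 4).

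In muscle without Nampt all 7 countable mRNAs were lower than in WT at 7 months. With libraries scaled by TMM (a trimmed mean over genes), edgeR's quasi-likelihood test called each of the 7 lower, at an adjusted p below 0.05 over all 13140 genes tested. Of all those genes 53.1% were called in either direction and 24.5% lower, so a call as such is common in this comparison. The median log2 fold change of the 7 was -1.38, and that of all genes was 0.01. For each of the 7 the highest mNKO library lay below the lowest WT library, which held for 23.1% of all genes. The summed level of 8 muscle markers was lower in mNKO too, and counted against it the mRNAs of the 2 groups overlapped. In bulk muscle, fewer muscle cells and less of an RNA per cell cannot be told apart.

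Among the complex I subunits, mt-Nd5 fell the most. In kCPM (CPM divided by 1000) it held 16.2, 13.5, 15.3 and 9.15 in WT_7m replicates 1 to 4 and 4.90, 3.39, 5.54 and 2.04 in mNKO_7m, a log2 fold change of -1.77 (SE 0.31, edgeR adjusted p = 0.000647). The groups were well separated, although both WT_7m replicate 4 and mNKO_7m replicate 4 were the lowest of their group. mt-Nd2 held 27.3, 40.1, 38.9 and 22.2 kCPM in WT and 9.89, 10.8, 14.9 and 7.19 in mNKO (log2 fold change -1.59, SE 0.26, edgeR adjusted p = 0.000482). mt-Nd1 held 38.7, 61.9, 54.6 and 35.04 kCPM in WT and 16.5, 17.6, 21.3 and 13.4 in mNKO (-1.47, SE 0.23, edgeR adjusted p = 0.000332). For both genes WT_7m replicates 2 and 3 were the higher pair, and the mNKO libraries all lay below the lowest WT library. mt-Nd4 was less affected, with 17.0, 29.7, 24.6 and 15.7 kCPM in WT and 10.05, 10.4, 13.0 and 10.3 in mNKO (-0.99, SE 0.22, edgeR adjusted p = 0.00309). mt-Nd6, from the other strand, had the smallest difference of the 7: 44.5, 77.7, 49.6 and 53.5 CPM in WT and 35.8, 27.4, 28.0 and 37.5 CPM in mNKO (-0.81, SE 0.18, edgeR adjusted p = 0.00339). Its groups were separated by a gap smaller than the spread within WT.

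The subunits of complexes III and IV changed in the same direction. mt-Cytb held 37.6, 55.1, 48.9 and 33.5 kCPM in WT_7m and 20.5, 18.9, 25.2 and 17.0 in mNKO_7m (log2 fold change -1.10, SE 0.21, edgeR adjusted p = 0.00115). mt-Co1 held 44.9, 53.5, 50.7 and 33.1 kCPM in WT and 21.4, 15.4, 23.1 and 10.1 in mNKO (-1.38, SE 0.27, edgeR adjusted p = 0.0013). mNKO_7m replicate 3 was the highest of its group for mt-Cytb and mt-Co1, as it was for mt-Nd1, mt-Nd2, mt-Nd4 and mt-Nd5.

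The 3 genes with almost no counts also passed the filter on low counts at 7 months, and no call is read from them. mt-Co2 held 7, 27, 31 and 18 counts in WT_7m and 9, 15, 25 and 16 in mNKO_7m. mt-Atp6 held 32, 45, 157 and 28 counts in WT_7m and 24, 23, 19 and 19 in mNKO_7m. mt-Co3 held 14, 26, 19 and 17 counts in WT_7m and 5, 3, 6 and 9 in mNKO_7m, under 0.5 CPM in each mNKO library, so its place in the fit rests on WT.

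**Figure D2:**
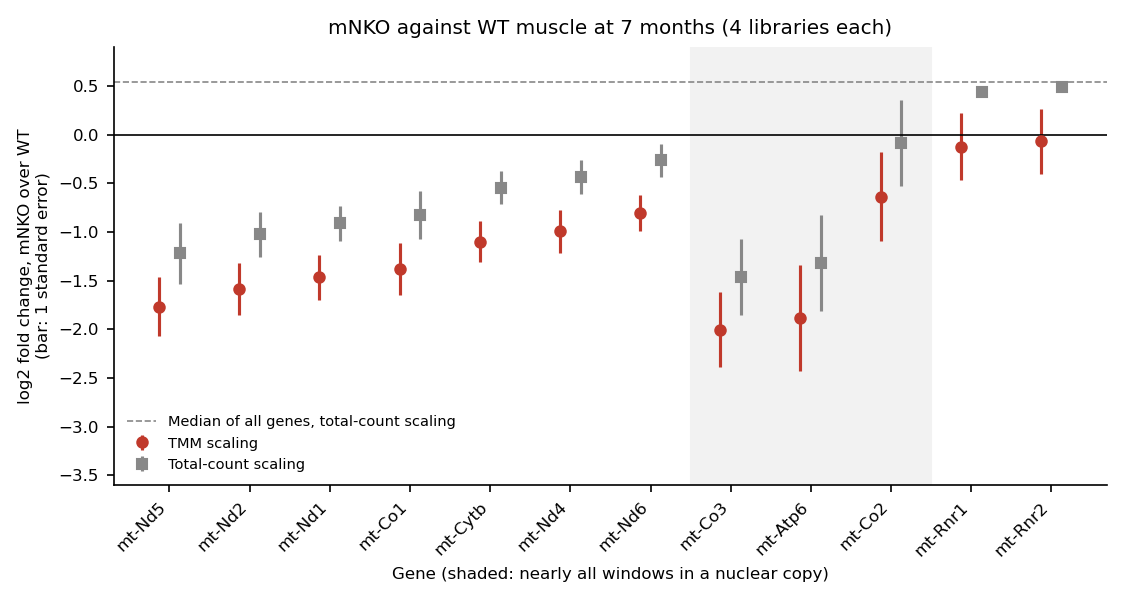
Log2 fold change of each mRNA in mNKO over WT muscle at 7 months (4 libraries each, edgeR; bars are 1 standard error), with TMM scaling (circles) and total-count scaling (squares); the 3 genes in the shaded band are nearly all shared with nuclear copies, and the 2 mitochondrial rRNAs stand at the right. The 7 countable mRNAs lie below 0 under both scalings, while mt-Rnr1 and mt-Rnr2 lie at -0.12 and -0.07 with TMM and at 0.44 and 0.48 with total counts (shown with no bar); the dashed line is the median of all genes under total-count scaling, 0.54.

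Scaling moved every fold change in this comparison. TMM factors ranged from 0.752 to 1.286 at 7 months, and scaling by total gene counts alone put the median of all genes at 0.54 on the log2 scale in place of 0.01. Under total counts the 7 genes stayed below WT, with log2 fold changes of -1.22 for mt-Nd5, -1.03 for mt-Nd2, -0.91 for mt-Nd1, -0.83 for mt-Co1 and -0.55 for mt-Cytb, each with an edgeR adjusted p of 0.016 or below. mt-Nd4 (-0.43, edgeR adjusted p = 0.0502) and mt-Nd6 (-0.27, edgeR adjusted p = 0.206) no longer passed. Of all 13140 genes, 927 were called lower and 6779 higher under total counts. Relative to the median of all genes, each of the 7 was further below under total counts than these values read. In the other 12 alternatives, which include DESeq2 and each library left out in turn, all 7 stayed called lower. The share of all genes called lower in those 12 is not given here.

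The share of gene counts taken by the mRNAs needs no scaling between libraries. It was 16.3, 19.1, 18.2 and 13.6% in WT_7m and 10.1, 8.48, 13.2 and 7.18% in mNKO_7m, and the highest mNKO library was just below the lowest WT library. The means were 16.8 ± 2.45% and 9.75 ± 2.62% (SD, n = 4), a difference of -7.05 percentage points (exact two-sided permutation test, p = 0.0286, the smallest that 4 against 4 allows; adjusted p = 0.143 over 5 comparisons). With all reads in the file as the denominator the shares were 11.7 and 7.43%. Reads that did not align uniquely were also a smaller share of all reads in mNKO, at 19.5, 18.2, 23.2 and 17.6%, than in WT_7m, at 24.5, 30.3, 27.9 and 24.0% (exact permutation p = 0.0286, adjusted p = 0.143). The part of the mRNAs in those reads was not tested. After adjustment neither exact test passed 0.05.

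**Figure D3:**
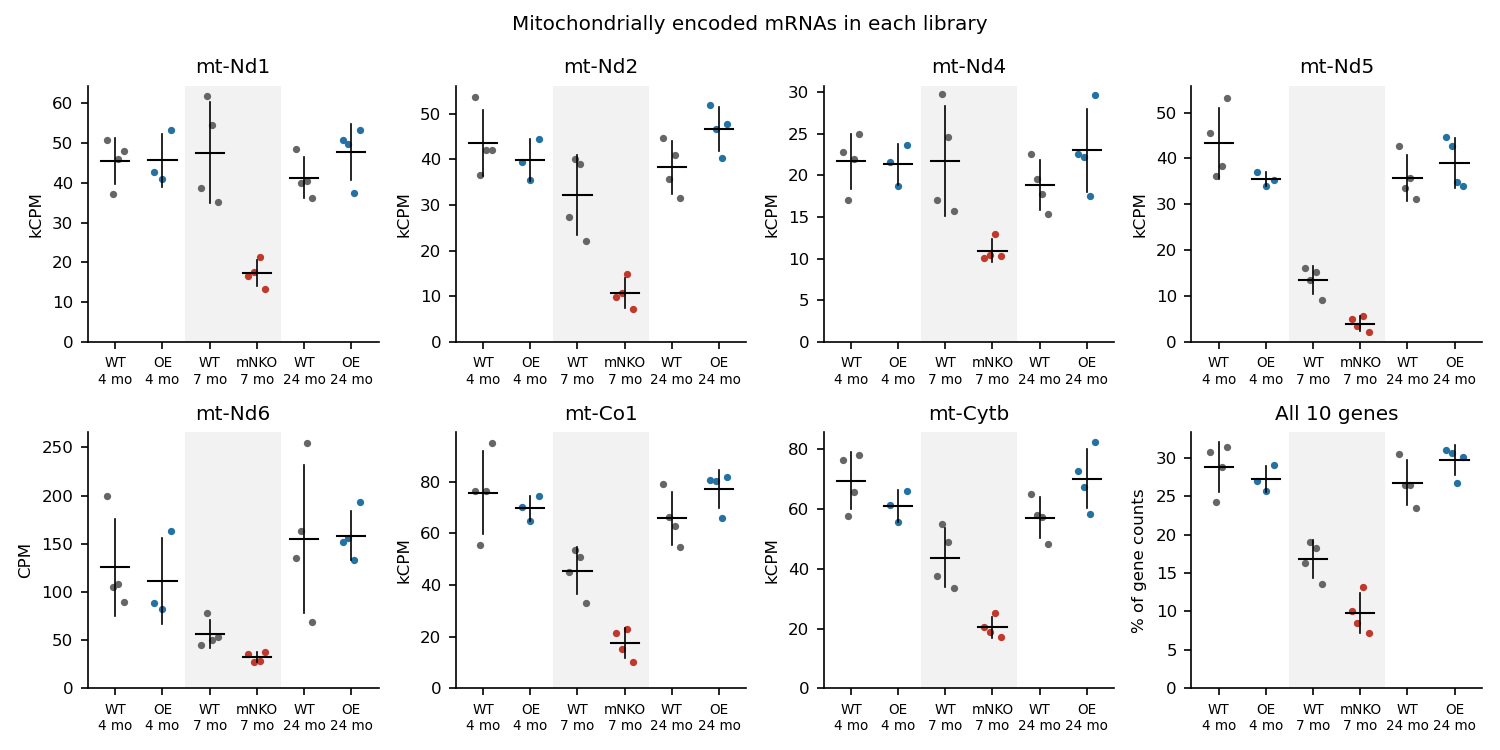
Level of each countable mRNA (kCPM; CPM for mt-Nd6) and, in the last panel, the percent of gene counts on all 10 mRNAs, in each library of the 6 groups (points; line, mean; bar, ± 1 SD; OE is MCK-NamptOE). The 7-month libraries (grey band) were extracted differently, and within them every mNKO point lies below every WT point; at 4 and 24 months the groups overlap.

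The mean mix among the mRNAs also shifted at 7 months, though no gene passed 0.05 after adjustment. The percentages share a total, so the genes do not vary independently. mt-Nd4 made up 10.5 ± 0.956% of the counts on the 10 mRNAs in WT_7m and 13.8 ± 2.27% in mNKO_7m, and mt-Cytb 21.5 ± 0.812% and 25.5 ± 1.88% (SD, n = 4). mt-Nd2 went the other way, from 15.6 ± 0.817% to 13.1 ± 1.38%. For these 3 genes the groups did not overlap, at the smallest p that the exact permutation test allows (0.0286). The adjusted p was 0.357 over 50 comparisons, which include the mRNAs with almost no counts. Full separation in a few of 50 comparisons cannot bring it below 0.05, so the adjusted value does not decide the question. For mt-Nd5 (6.73 and 4.78%), mt-Nd1 (23.2 and 21.4%), mt-Co1 (22.4 and 21.2%) and mt-Nd6 (0.0281 and 0.0421%) the groups overlapped.

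The mitochondrial rRNAs come from the same genome and passed the test under neither scaling. mt-Rnr1 held 2.28 ± 1.19 kCPM in WT_7m and 2.09 ± 0.539 in mNKO_7m (log2 fold change -0.12, SE 0.34, edgeR adjusted p = 0.787), and mt-Rnr2 2.28 ± 1.13 and 2.17 ± 0.574 (-0.07, SE 0.33, edgeR adjusted p = 0.872). Under total-count scaling both estimates turned above 0, to 0.44 and 0.48 (edgeR adjusted p = 0.204 and 0.139), and again neither passed. The median of all genes under that scaling was 0.54. The log2 ratio of the 7 mRNAs to both rRNAs was 6.18, 5.06, 5.50 and 5.63 in WT_7m and 4.49, 3.76, 5.05 and 3.70 in mNKO_7m, a difference of -1.34 (exact permutation p = 0.0286, adjusted p = 0.143 over 5 comparisons). The highest mNKO value was next to the lowest WT value. The rRNAs carry short tails at most, and these libraries were selected for poly(A) RNA.

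The nuclear subunits of the same complexes were called lower at a share near that of all genes, and none was called higher. Of 75 nuclear subunits of complexes I to V, 22 fell and 0 rose in mNKO by the edgeR test. Of all genes 24.5% were called lower and 28.6% higher. Of the subunits named next, Ndufb4 and Cox6a2 had larger drops than mt-Nd6 among the mRNAs. For complex I it was 13 of 36, with a median log2 fold change of -0.38. Ndufb4 fell by 0.86 (SE 0.18) and Ndufa12 by 0.71 (SE 0.17), both accessory subunits. For complex IV it was 4 of 11, led by Cox6a2 and Cox8b, forms found in muscle (-0.84, SE 0.18, and -0.74, SE 0.22). Under total-count scaling the nuclear counts turned to 18 higher and 0 lower, beside 6779 higher and 927 lower of all 13140 genes. The list medians were then 0.15 to 0.37, below the median of all genes, 0.54. The sign of the nuclear lists thus depends on the scaling, as does that median.

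The ratio of mitochondrial to nuclear counts within a complex avoids that choice. For complex I its log2 value was 4.10, 3.98, 4.11 and 3.53 in WT_7m and 2.97, 2.83, 3.39 and 2.23 in mNKO_7m, a difference of -1.07. For complex III the difference was -0.81 and for complex IV -1.04. The complex III value rests on mt-Cytb alone and that of complex IV almost wholly on mt-Co1. In all 3 complexes the mNKO libraries lay below all WT libraries (exact permutation p = 0.0286 each, adjusted p = 0.143 over 20 comparisons). So mitochondrial transcripts were lower relative to nuclear transcripts of the same complex, at the smallest p that 4 libraries against 4 can give, and not past 0.05 after adjustment.

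Nuclear genes that act on mitochondrial transcripts were read from 4 further lists. Their counts stand beside the 24.5% of all genes called lower and the 28.6% called higher. Of 15 genes for mitochondrial DNA transcription and replication 8 fell and 0 rose. They included Tfb2m, a transcription factor of the mitochondrial polymerase (log2 fold change -1.04, SE 0.14), Top1mt, the mitochondrial topoisomerase (-1.10, SE 0.16), Mgme1, an exonuclease of mitochondrial DNA (-0.90, SE 0.17), and Tfam, which packages the genome and starts transcription (-0.61, SE 0.12). Of 21 genes for RNA processing and stability 9 fell and 0 rose, among them Fastkd2, which binds mitochondrial RNA (-1.06, SE 0.14), Angel2 (-0.98, SE 0.15), 1110008L16Rik (-0.80, SE 0.13) and Fastk (-0.73, SE 0.12). Of 37 genes for mitochondrial translation 13 fell and 0 rose, with Mtrf1, a release factor, at -1.26 (SE 0.15). Of 12 regulators of mitochondrial biogenesis 3 fell and 0 rose: Prkaa2, the AMPK catalytic subunit (-1.19, SE 0.20), Esrra (-0.40, SE 0.10) and Yy1 (-0.37, SE 0.13). Under total-count scaling these lists gave 3 higher and 2 lower, 6 and 2, 14 and 1, and 5 and 1. All 13140 genes gave 6779 higher and 927 lower there. Tfb2m, Top1mt, Fastkd2, Angel2, Mtrf1 and Prkaa2 stayed lower under that scaling, with edgeR adjusted p of 0.00401, 0.00564, 0.012, 0.0383, 0.00169 and 0.0146.

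Markers of other cells moved with these changes. All 8 macrophage markers and all 6 fibroblast markers rose in mNKO, beside the 28.6% of all genes called higher, with summed levels of 967 to 1978 CPM against 77.5 to 291 in WT, and 3099 to 5075 against 840 to 1105. Of 5 adipocyte, 4 endothelial, 4 red blood cell and 3 Schwann cell markers tested, 0 were called in either direction, though Pecam1, an endothelial adhesion molecule, was called higher under total-count scaling (0.90, edgeR adjusted p = 0.000851). Of 8 muscle markers 5 fell and 0 rose, beside the 24.5% of all genes called lower. Under total-count scaling 3 fell and 0 rose, beside 927 lower and 6779 higher of all 13140 genes. The summed level of these 8 was 89679 to 140850 CPM in mNKO_7m against 190730 to 239490 in WT_7m. Of this Myh4 alone averaged 21221 CPM in mNKO_7m and 54461 in WT_7m. Whether the sum follows muscle content or the level of single markers was not tested. Counted against the muscle markers, the 7 mRNAs had a log2 ratio of -0.07, 0.08, 0.08 and -0.43 in WT_7m and -0.40, -0.88, 0.20 and -0.99 in mNKO_7m. Those groups overlapped, and the difference of -0.43 did not pass the exact permutation test (p = 0.257, adjusted p = 0.429 over 5 comparisons). The part of the cell mix in the lower mRNAs was not tested further.

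**Figure D4:**
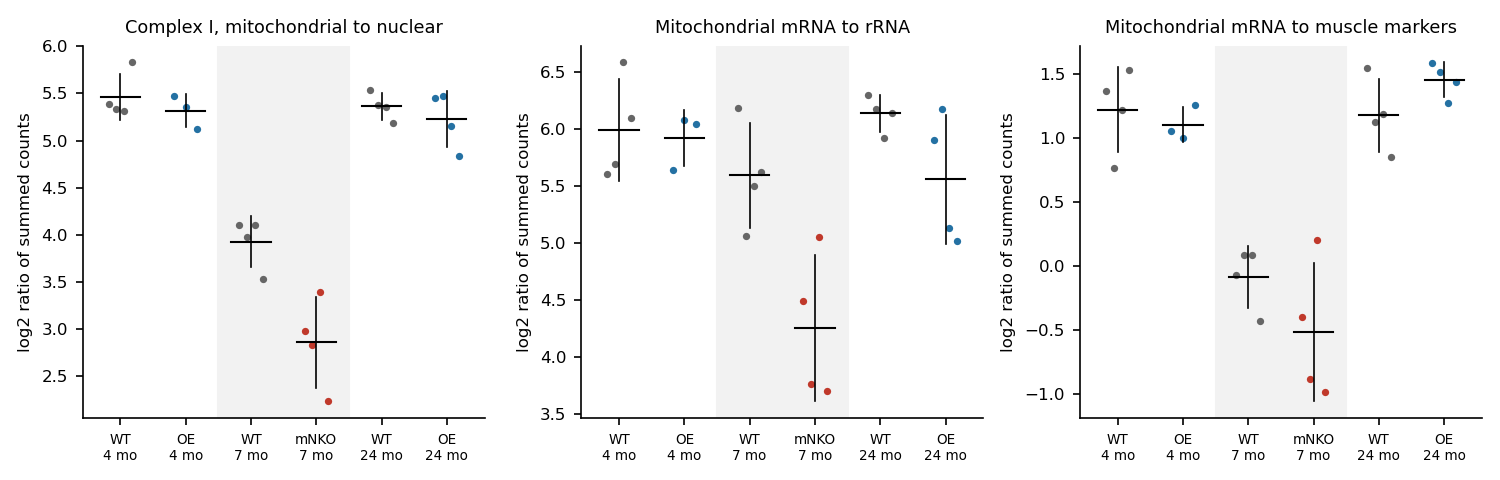
Log2 ratios of summed counts in each library (points; line, mean; bar, ± 1 SD; OE is MCK-NamptOE): complex I mRNAs of the mitochondrion to those of the nucleus, the 7 countable mRNAs to the 2 mitochondrial rRNAs, and the 7 mRNAs to 8 muscle markers. At 7 months (grey band) mNKO lies below WT without overlap in the first 2 panels, with differences of -1.07 and -1.34, and overlaps WT in the third.

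With Nampt overexpressed, none of the mRNAs differed from WT by the test. At 4 and 24 months the 7 countable mRNAs passed the filter on low counts, and mt-Co2, mt-Atp6 and mt-Co3 (9 counts or fewer in every library) did not. In OE_4m against WT_4m 0 of 7 were called (edgeR, beside 0.0109% of all 9144 genes), and DESeq2 called 0. An unadjusted edgeR p below 0.05 was found for 0 of the 7, beside 441 of the 9144 genes. Log2 fold changes ran from -0.29 for mt-Nd5 to 0.00 for mt-Nd1, with a median of -0.13. In OE_24m against WT_24m 0 of 7 were called again (edgeR, background 0.0109%, and DESeq2 0). An unadjusted edgeR p below 0.05 was found for 2, beside 671 of the 9144 genes. They were mt-Cytb at 0.30 (SE 0.13, adjusted p = 0.653) and mt-Nd2 at 0.29 (SE 0.14, adjusted p = 0.679). All 7 estimates were above 0 at 24 months, with a median of 0.23, but mt-Nd6 (0.03) turned to -0.07 under total-count scaling.

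mt-Cytb shows the spread behind these values. It held 76.5, 57.8, 65.6 and 78.1 kCPM in WT_4m and 61.4, 55.6 and 66.1 in OE_4m. At 24 months it held 65.0, 57.9, 57.4 and 48.2 kCPM in WT_24m and 72.6, 67.3, 58.5 and 82.3 in OE_24m. The groups overlapped at both ages. mt-Nd2 held 44.7, 35.7, 40.9 and 31.6 kCPM in WT_24m and 51.9, 46.6, 40.3 and 47.7 in OE_24m, where OE_24m replicate 3 alone lay within the WT range.

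Age gave no call either. In WT, 24 against 4 months, 0 of 7 were called (edgeR, background 0.153%, and DESeq2 0), and the median of the 7 was -0.20. An unadjusted edgeR p below 0.05 was found for 1, mt-Cytb at -0.28 (SE 0.13, adjusted p = 0.572), beside 781 of all 9144 genes. In MCK-NamptOE 0 of 7 were called (background 0.733%, and DESeq2 0), and the median was 0.15. An unadjusted edgeR p below 0.05 was found for 0 of the 7 there, beside 1010 of the 9144 genes. These 4 comparisons share their control libraries in pairs, so their estimates are not independent. The difference between the genotypes' age effects, tested as an interaction, was called for 0 of 7 (background 0%; DESeq2 0). It was 0.48 for mt-Cytb (SE 0.20, unadjusted p = 0.0225 in edgeR, adjusted p = 0.868), 0.42 for mt-Nd2 and 0.42 for mt-Nd5. Of the 9144 genes, 498 had an unadjusted edgeR p below 0.05 for the interaction. Standard errors in these 4 comparisons were 0.13 to 0.17 for 6 of the mRNAs and 0.37 to 0.41 for mt-Nd6.

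**Figure D5:**
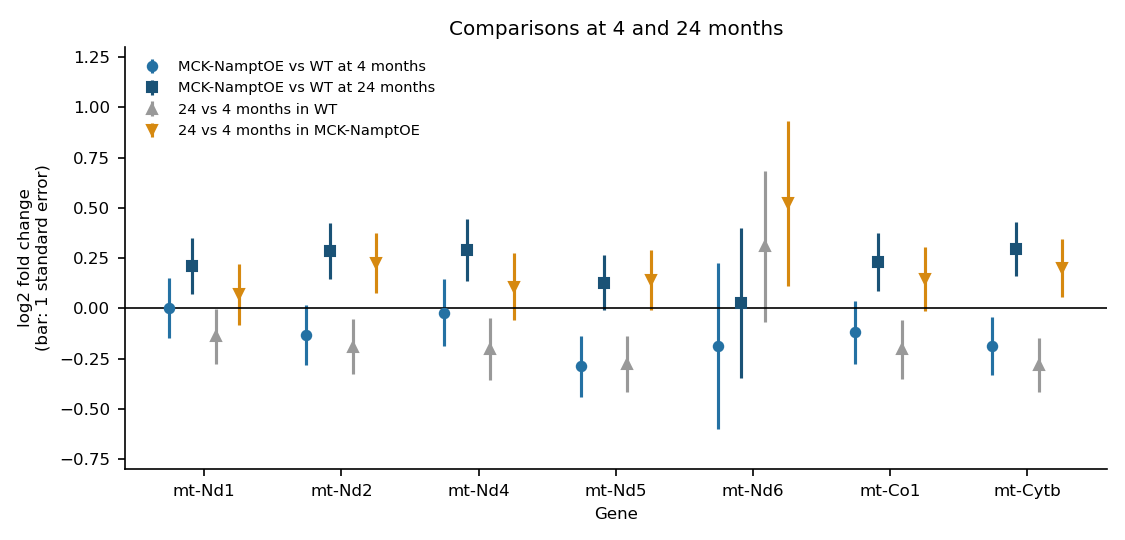
Log2 fold change of the 7 countable mRNAs in the 4 comparisons at 4 and 24 months (edgeR with TMM scaling; bars are 1 standard error). No estimate passed the test; those of MCK-NamptOE over WT lie from -0.29 to 0.00 at 4 months and from 0.03 to 0.30 at 24 months.

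The share of gene counts overlapped between groups as well. It was 30.7, 24.2, 28.8 and 31.4% in WT_4m, 27.0, 25.7 and 29.0% in OE_4m, 30.5, 26.4, 26.5 and 23.4% in WT_24m and 31.1, 30.6, 26.8 and 30.1% in OE_24m. All 4 comparisons had adjusted p from 0.286 to 0.486 (exact permutation test; the smallest p is 0.0571 where OE_4m enters). Mitochondrial to nuclear ratios of complexes I, III and IV passed in none of them. Counted against the muscle markers, the 7 mRNAs had a log2 ratio of 1.05, 1.0001 and 1.26 in OE_4m and 1.59, 1.52, 1.28 and 1.44 in OE_24m, higher at 24 months without overlap. That difference of 0.35 had the smallest p that 4 against 3 allows (exact permutation p = 0.0571, adjusted p = 0.286 over 5 comparisons), and this design cannot pass 0.05. The ratio overlapped in the other 3 comparisons, with differences of -0.12 for OE_4m and 0.28 for OE_24m over WT and -0.04 with age in WT. No gene was called in these 4 comparisons among the nuclear subunits or in the lists for mitochondrial DNA, RNA processing, translation and biogenesis. Some markers of other cells did change with age. Of 6 fibroblast markers 2 were called, the collagens Col1a1 and Col1a2, beside 0.153% of all genes in WT and 0.733% in MCK-NamptOE. Both fell in WT (-1.77 and -1.45, edgeR adjusted p = 0.00618 and 0.011) and in MCK-NamptOE (-1.85 and -2.37, edgeR adjusted p = 0.00118 and 5.91e-05). Of 4 endothelial markers 1 fell in WT, Cdh5 (-0.71), which did not pass under total-count scaling (edgeR adjusted p = 0.0644), and 2 fell in MCK-NamptOE. Their part in the mRNA levels was not tested.

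The genes most like the mRNAs over libraries were picked by Pearson correlation of log2 CPM with the mean of the mRNAs, as a description. Over the 15 libraries at 4 and 24 months they were St3gal5 (r = 0.90), Evc (0.87), Decr1 (0.85), Fndc5 (0.85) and Chchd3 (0.85), of 6128 genes. Decr1 is an enzyme of fatty acid oxidation in mitochondria and Chchd3 a part of the inner membrane's contact sites. Over the 8 libraries at 7 months, which fall into WT and mNKO, they were Coq9, needed to make coenzyme Q (r = 0.99), Idh3b, of the citric acid cycle (0.99), Polr2m, Zfp397 and 2610002M06Rik (0.99 each). Among themselves the mRNAs without mt-Nd6 had correlations of 0.49 to 0.92 over the 15 libraries and 0.85 to 0.99 over the 8. These points share libraries, scaling and, at 7 months, the difference between the genotypes.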

How the data were processed

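Poly(A) RNA of 23 quadriceps samples was sequenced. The authors deposited raw counts per gene, and tables of log2 fold changes and adjusted p-values that served here only to pair identifiers with symbols. The submitters' processing notes name DESeq, DESeq2, HTSeq, TopHat2, cutadapt 1.4.2 and the build mm10, and order and settings are not given in the sources used here. Reads assigned to no gene (21.5 to 33.5% of a file at 7 months, 33.6 to 40.0% at 4 and 24 months) stayed out of library sizes and tests. Counts were tested with edgeR 4.0.16 (R 4.3.3; filterByExpr, TMM, robust quasi-likelihood F test, Benjamini-Hochberg adjustment over all genes tested) in 2 fits, 13140 genes in the 8 libraries at 7 months and 9144 genes in the 15 libraries at 4 and 24 months, each with a mean per group; CPM use the same scaling. The test was checked on simulated counts in which few genes changed, as many up as down. That check cannot speak to the choice of scaling at 7 months. Shares and ratios, 1 value per library, were compared with exact two-sided permutation tests. Alternatives were total-count and upper quartile scaling, TMM without mitochondrial genes, DESeq2 1.42.0, no filter, and each library left out. The genes, lists and comparisons were chosen with earlier results of these data known, and the split into 7 countable and 3 uncountable mRNAs, the ratios to rRNA and to muscle markers and the share of reads not uniquely aligned after the counts were seen. Named beside the mRNAs are up to 4 genes per list with the smallest adjusted p, and the 5 genes of highest correlation with at least 10 CPM. Each title names another animal, so p-values reflect variation among animals. Gene positions and sequences are from GENCODE M21.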

Additional observations from a re-analysis of the deposited data

Results flagged for a closer look

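In 5 of 80 groups of 4 libraries, a library stood apart from the other 3 by Dixon's ratio at its critical value, and chance alone flags about 1 in 20 groups. mt-Co1 was 65960 CPM in OE_24m replicate 3 and 80172 to 81665 CPM in the other OE_24m libraries. mt-Nd4 was 12968 CPM in mNKO_7m replicate 3 and 10046 to 10403 CPM in the rest of mNKO_7m. mt-Atp6 was 8.88 CPM in WT_7m replicate 3 and 1.68 to 2.63 CPM in the other WT_7m libraries. mt-Co3 was 0.805 CPM (2 counts) in OE_24m replicate 1 and 0 in the other OE_24m libraries. Beside zeros any count gives Dixon's ratio of 1, so that flag was fixed in advance. As above, the values of mt-Atp6 and mt-Co3 are not read as levels. The log2 ratio of mitochondrial to nuclear complex I counts was 5.83 in WT_4m replicate 4 and 5.31 to 5.38 in the other WT_4m libraries.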

How the results depend on the processing

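Under total-count scaling mt-Nd4 (-0.43) and mt-Nd6 (-0.27) were no longer called lower in mNKO, and the other 5 countable mRNAs were. Of all 13140 genes, 927 were called lower and 6779 higher there. mt-Nd4 in OE_4m turned to 0.029 under total counts and 0.010 under the upper quartile, and mt-Nd6 in OE_24m to -0.066 under total counts. With each library left out in turn, uncalled log2 fold changes crossed 0: in OE_4m mt-Nd1 (-0.12 to 0.077), mt-Co1 (-0.24 to 0.0072), mt-Nd4 (-0.12 to 0.064) and mt-Nd6 (-0.56 to 0.13); in OE_24m mt-Nd6 (-0.22 to 0.37); with age in WT mt-Nd6 (-0.039 to 0.62) and in MCK-NamptOE mt-Nd1 (-0.0041 to 0.20) and mt-Nd4 (-0.039 to 0.21); and the interaction of mt-Nd6 (-0.10 to 0.58). Log2 ratios to nuclear subunits crossed 0 for complex I with age in WT (-0.16 to 0.021) and MCK-NamptOE (-0.18 to 0.045), and for complex IV in OE_4m (-0.19 to 0.0050) and with age in WT (-0.15 to 0.042) and MCK-NamptOE (-0.23 to 0.036). The log2 ratio to muscle markers crossed 0 with age in WT (-0.197 to 0.0639). The share of mt-Co1 among the mRNAs in mNKO ran from -2.67 to 0.29 percentage points. The cause of these changes was not tested. No paired analysis was possible because replicate numbers were given in accession order and name no shared animal or batch. The design sets the other limits: 4 libraries against 4 cannot give an exact p below 0.0286, and libraries at 4 and 24 months are shallower.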

Other observations

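The share of mt-Nd5 among the counts on the 10 mRNAs was 6.73 ± 1.54% in WT_7m, against 14.5 ± 1.09% in WT_4m and 13.9 ± 0.473% in WT_24m (SD, n = 4 each). The 7-month libraries also held a lower share of gene counts on the mRNAs than any library at 4 or 24 months. Age, extraction and depth differ between these sets and cannot be told apart, so no test was made.

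At 24 months the mitochondrial rRNAs had larger estimates in MCK-NamptOE over WT than the mRNAs did. They were 0.98 (SE 0.26) for mt-Rnr1 and 0.81 (SE 0.26) for mt-Rnr2, with unadjusted edgeR p of 0.00193 and 0.00692 and adjusted p of 0.541 and 0.593, so neither was called. mt-Rnr1 averaged 1.63 ± 0.205 kCPM (CPM divided by 1000) in WT_24m and 3.22 ± 1.32 in OE_24m (SD, n = 4). The log2 ratio of mRNA to rRNA was 6.30, 6.18, 5.92 and 6.14 in WT_24m and 5.91, 6.17, 5.13 and 5.02 in OE_24m, and the groups overlapped (exact permutation p = 0.114, adjusted p = 0.286).

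Among mitochondrial tRNAs, 3 had enough counts at 7 months. In mNKO, with TMM scaling, mt-Tm fell by 1.59 on the log2 scale (SE 0.42, edgeR adjusted p = 0.00766) and mt-Tw by 0.83 (SE 0.29, edgeR adjusted p = 0.0329). These calls stand beside the 24.5% of all genes called lower under the same scaling. mt-Ti was at 0.10 (SE 0.30, edgeR adjusted p = 0.80). mt-Tm and mt-Tw held at most 20 and 33 counts in any library. tRNAs are cut from the same precursors as the mRNAs and carry no poly(A) tail, and which molecules these counts come from was not tested.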
